A study of Homo sapiens with 4 samples.

Results

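The 43 genes described here mark epithelial, mesenchymal and breast lineage identity. They comprise cadherins and EPCAM, tight junction genes, epithelial regulators, keratins, epithelial surface proteins, transcription factors of the epithelial to mesenchymal transition (EMT), mesenchymal effectors, luminal hormone genes and 1 cancer-testis gene. They were named as a list, with earlier results of these data known, and looked up by gene symbol in a table of 32955 genes. They are described by their RPKM levels (reads on a gene scaled by its length and by the reads of the library). Their percentile among the genes that averaged 1 RPKM or more is given as well. These levels are therefore a description and carry no test. Of the 43 members, 41 had a row in the table, and PGR and TFF1 had none. A mean RPKM of at least 1 over the libraries was reached by 24 members, as it was by 13871 genes in all, and 17 members were listed below it. A member's percentile is the share of those 13871 genes with a lower mean. The members just under 1 RPKM were CLDN4 at 0.746, KRT19 at 0.722 and TWIST1 at 0.381, and those just above it were ZEB2 at 1.47, FOXA1 at 1.51 and KRT81 at 2.04.

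RNA-seq was performed on 4 libraries labelled MDA-MB-231, a line from human breast cancer that is generally described as lacking the estrogen receptor and as strongly positive for vimentin. The cells had been transfected with mimic NC, a control oligonucleotide (2 libraries), or with miR-217 mimic, a synthetic RNA that acts as the microRNA miR-217 (2 libraries), and all were grown in the same serum-containing medium. The study asked which transcripts differ with the mimic. Both groups stem from 1 established line, and nothing in the labels says that libraries of a group came from separate cultures, so p-values measure the spread between these libraries, which may be technical.

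From 32635814 to 57933183 reads were recovered per library. The libraries carry the replicate numbers 1 and 2 in each group, and the first principal component, with 71.3% of the variance, set those numbered 1 apart from those numbered 2. The labels do not say what the number marks. CDKN2A, commonly listed as homozygously lost in MDA-MB-231, was at 13.2 and 11.5 RPKM in the mimic NC libraries and at 12.8 and 10.5 RPKM in the miR-217 mimic libraries (7.88% of its exon bases are shared with CDKN2B-AS1), and its neighbour CDKN2B was at 6.92 to 8.91 RPKM. MTAP, also looked up as a gene of this locus, averaged 1.43 RPKM with mimic NC and 1.51 RPKM with miR-217 mimic. The CDKN2A levels go against the label, so the name of the line is given below only as the label has it. In bulk RNA, fewer cells of a type and less RNA per cell cannot be told apart.

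Epithelial cells adhere through E-cadherin and seal their contacts with claudins and occludin, and their cytoskeleton is built from paired type I and type II keratins such as KRT18 and KRT8. In EMT the factors of the ZEB, SNAIL and TWIST families repress junction genes by binding E-box motifs, while N-cadherin, vimentin and fibronectin become prominent. In the breast, KRT8, KRT18 and KRT19 are luminal keratins, KRT5, KRT14 and KRT17 are basal ones, and ESR1, PGR, GATA3, FOXA1 and TFF1 belong to the hormone-responsive luminal programme.

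The sequences that the comparison with the mimic turns on are the mature miR-217 and the places in members that match it. The mature strand hsa-miR-217-5p comes from chr2:55983020-55983042, minus strand (GRCh38.p14, RefSeq), with its seed, bases 2 to 8, in capitals.
hsa-miR-217-5p: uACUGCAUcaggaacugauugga
The letters complementary to the seed, ATGCAGT, were searched on the sense strand of the longest 3'UTR of each gene in GENCODE 29 (GRCh38). They were found in 6 of the 43 members and in 3 of the 24 at 1 RPKM or more, compared with 1440 of 9911 expressed genes with a 3'UTR (14.5%). In capitals are the matching letters in the 3'UTRs of ZEB1 (chr10:31527498-31527504), CD44 (chr11:35230581-35230587), FN1 (chr2:215360976-215360982, minus strand) and CDH1 (chr16:68833624-68833630, the first of 2 matches).
ZEB1: agtaatttttcATGCAGTtttcaaagtta
CD44: gtctgttcttgATGCAGTtgctatttagg
FN1: aaacacttagtATGCAGTtgataagagga
CDH1: actggttagtgATGCAGTtagtatagctt
The other members with a match were OCLN and GRHL2. None of the matches in the 6 members was followed by an A. A match of letters is a description and not a site of action.

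Keratins of simple epithelia and a folate receptor were the most abundant members. FOLR1, the folate receptor of several epithelia (chromosome 11, 72189558 to 72196301), was at 523 and 447 RPKM in the mimic NC libraries and at 456 and 326 RPKM in the miR-217 mimic libraries, which put its mean of 438 at the 99.4th percentile. KRT7, a type II keratin of simple epithelia (chromosome 12, 52232520 to 52252186), was at 280 and 282 RPKM with mimic NC and at 279 and 289 RPKM with miR-217 mimic, at the 98.9th percentile. It was the steadiest of the 4 leading genes, with a coefficient of variation of 1.51% over the 4 libraries. KRT8, the type II partner of KRT18, was at 421 and 165 RPKM with mimic NC and at 393 and 154 RPKM with miR-217 mimic. KRT18 was at 303 and 155 RPKM with mimic NC and at 283 and 142 RPKM with miR-217 mimic. Both of these keratins were high in the libraries numbered 1 and low in those numbered 2, while the mimic NC and miR-217 mimic libraries overlapped. The order of the 4 genes by mean RPKM thus was FOLR1 (438), KRT8 (283), KRT7 (283) and KRT18 (221). The values of KRT8 and of KRT18 each spanned those of KRT7, while FOLR1 exceeded KRT8 in each library. This order rests on the gene lengths used for scaling, 1577 bases for FOLR1 and 6881 for KRT8. By recovered reads, FOLR1 lay below KRT7 and KRT8 in each library. In the first mimic NC library the reads were 167790 for KRT8, 66436 for KRT7, 56468 for KRT18 and 47774 for FOLR1. Reads may be shared between KRT8 and KRT18, which lie on opposite strands of chromosome 12. These 2 genes share 7.63% and 16.3% of their exon bases with each other. Reads of KRT8 may also be shared with its 34 listed pseudogenes, which had summed levels of 18.5 to 27.6 RPKM.

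**Figure D1:**
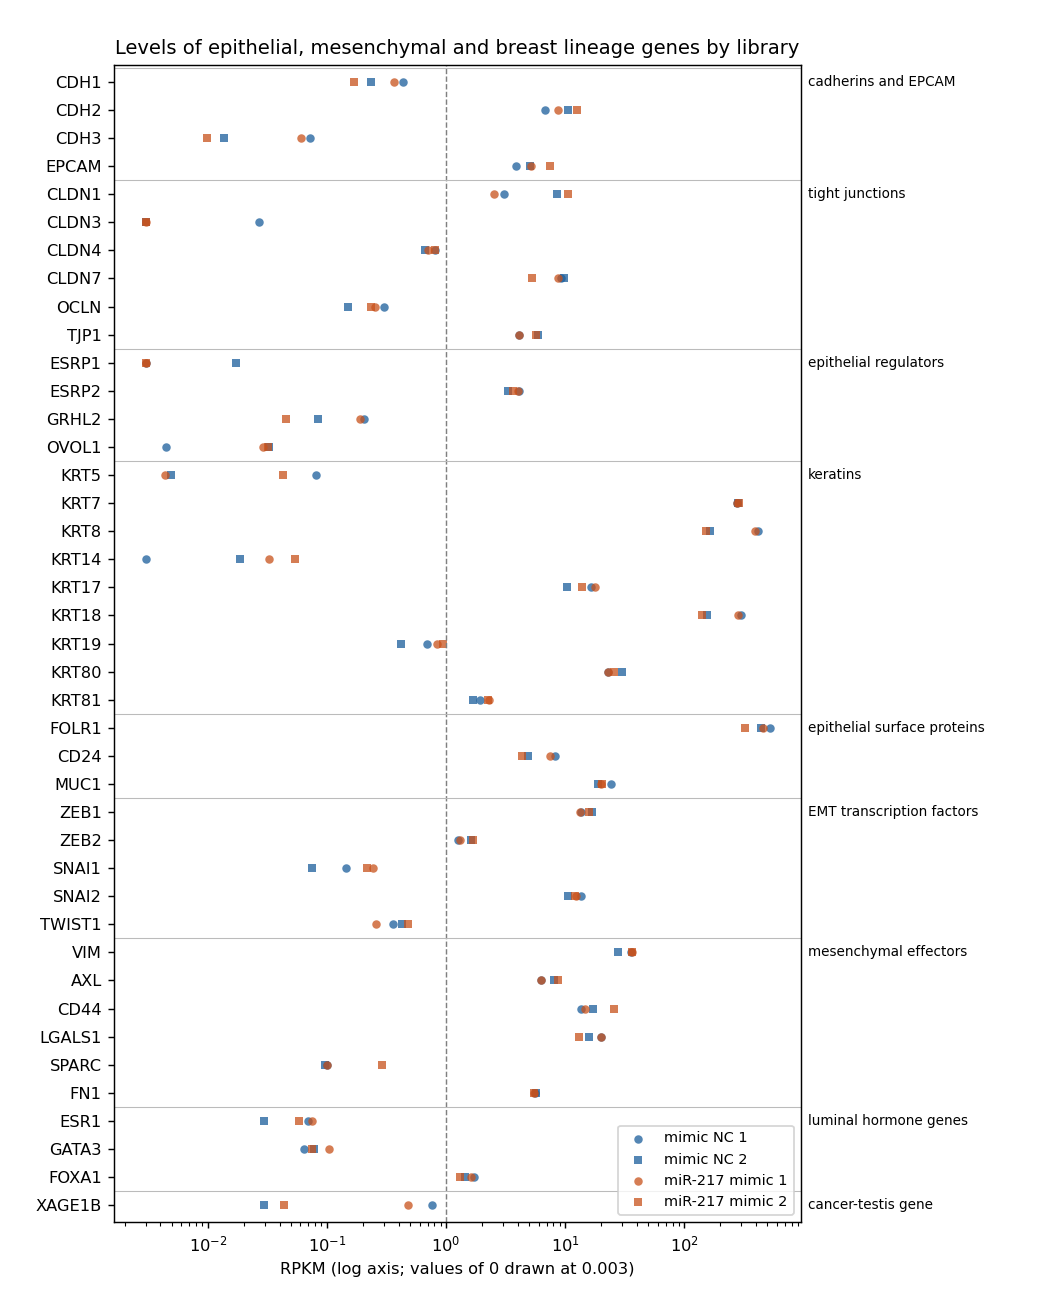
RPKM on a log axis (values of 0 drawn at 0.003) of the 41 listed members, grouped by role, with 1 point per library (circles for replicate number 1, squares for number 2, blue for mimic NC, orange for miR-217 mimic). The dashed line is 1 RPKM, and FOLR1, KRT7, KRT8 and KRT18 sit between 142 and 523 RPKM, more than the 35.9 and 27.9 RPKM of VIM with mimic NC.

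The other keratins spread over a wide range. KRT80, a type II keratin, was at 23.2 and 30.2 RPKM with mimic NC and at 23.0 and 25.9 RPKM with miR-217 mimic. KRT17, a basal keratin also induced under stress, was at 16.6 and 10.4 RPKM with mimic NC and at 18.0 and 13.97 RPKM with miR-217 mimic. KRT81, a hair keratin, reached 1.69 to 2.30 RPKM. The other basal keratins were near 0, with 1 to 20 reads per library for KRT5 and 0 to 4 reads for KRT14. The luminal keratin KRT19 was at 0.416 to 0.944 RPKM (46 to 105 reads), far under the other luminal keratins KRT8 and KRT18. For KRT14, a count of 0 in the first mimic NC library allows up to 0.0227 RPKM (3 reads, counting error only). Of the 16 other keratins looked up, 13 were listed and 2 reached a mean of 1 RPKM, KRT10 at 12.7 and KRT86 at 1.65 RPKM.

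Of the other epithelial surface proteins, MUC1, a transmembrane mucin, was at 24.5 and 18.9 RPKM with mimic NC and at 20.2 and 20.5 RPKM with miR-217 mimic. CD24, a small surface sialoglycoprotein, was at 4.34 to 8.28 RPKM. MUC1 was at percentile 83.3 and CD24 at percentile 56.5, both far below FOLR1.

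Junction genes were split. CDH1, which encodes E-cadherin (chromosome 16, 68737225 to 68835548), was at 0.433 and 0.232 RPKM with mimic NC and at 0.364 and 0.169 RPKM with miR-217 mimic, from 34 to 155 reads. CDH2, which encodes N-cadherin (chromosome 18, 27950966 to 28177446), was at 6.81 and 10.7 RPKM with mimic NC and at 8.69 and 12.5 RPKM with miR-217 mimic. The ratio of CDH2 to CDH1 was 15.7 and 46.0 in the mimic NC libraries and 23.9 and 74.3 in the miR-217 mimic libraries, so that N-cadherin transcripts exceeded E-cadherin transcripts in all 4 libraries. P-cadherin (CDH3) had 2 to 26 reads per library. EPCAM, an epithelial adhesion molecule, was nonetheless present at 3.90 and 5.06 RPKM with mimic NC and at 5.16 and 7.41 RPKM with miR-217 mimic.

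Among the tight junction genes, CLDN7 was at 9.18 and 9.86 RPKM with mimic NC and at 8.74 and 5.24 RPKM with miR-217 mimic. CLDN1 was at 2.55 to 10.5 RPKM, and TJP1, the scaffold protein ZO-1, was at 4.08 to 5.97 RPKM. CLDN4 was at 0.664 to 0.815 RPKM and OCLN, which encodes occludin, at 0.150 to 0.301 RPKM. CLDN3 had 2 reads in 1 library and 0 in the other 3, where a count of 0 allows up to 0.0441 to 0.0722 RPKM. Of 23 other junction genes, 22 were listed and 17 reached 1 RPKM. The most abundant were the desmosomal DSP at 86.8 and DSG2 at 30.9 RPKM and the catenin CTNNA1 at 41.5 RPKM, while the desmosomal DSC2 and PKP1 were at 0.0098 and 0.0040 RPKM, below CDH1, and DSC3 had no row.

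The epithelial regulators were low. ESRP2, a splicing factor of epithelial cells, was at 3.30 to 4.12 RPKM, while its paralog ESRP1 had 4 reads in 1 library and 0 in the other 3 (a count of 0 there allows up to 0.0106 to 0.0189 RPKM). GRHL2 and OVOL1, transcription factors that maintain epithelial genes, had 9 to 72 and 1 to 6 reads per library. Of 21 other epithelial genes, all were listed and 14 reached 1 RPKM, led by SFN at 133, KLF5 at 31.8 and ELF3 at 22.1 RPKM.

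EMT factors and mesenchymal effectors were present beside the keratins. ZEB1, a zinc finger repressor of CDH1, was at 13.6 and 17.0 RPKM with mimic NC and at 13.3 and 15.8 RPKM with miR-217 mimic, at the 77.4th percentile. SNAI2, which encodes SLUG, was at 13.7 and 10.6 RPKM with mimic NC and at 12.3 and 12.1 RPKM with miR-217 mimic. The 3 other factors were lower, with ZEB2 at 1.25 to 1.70, TWIST1 at 0.258 to 0.482 and SNAI1 at 0.0751 to 0.245 RPKM.

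VIM, which encodes the intermediate filament protein vimentin (chromosome 10, 17228259 to 17237593), was at 35.9 and 27.9 RPKM with mimic NC and at 36.5 and 36.9 RPKM with miR-217 mimic, at percentile 89.3. It was the most abundant mesenchymal member, yet KRT7 exceeded it by 7.65-fold to 10.1-fold in each library and KRT18 by 3.85-fold to 8.43-fold. Of its exon bases, 24.4% are shared with other listed genes, among them VIM-AS1 on the other strand, and the sources used here do not say whether strand was used in counting. CD44, the hyaluronan receptor (chromosome 11, 35138870 to 35232402), was at 13.5 and 17.3 RPKM with mimic NC and at 14.6 and 26.0 RPKM with miR-217 mimic. LGALS1, which encodes galectin-1, was at 20.2 and 16.0 RPKM with mimic NC and at 19.9 and 13.2 RPKM with miR-217 mimic. The receptor tyrosine kinase AXL was at 6.23 to 8.71 RPKM and FN1, which encodes fibronectin, at 5.46 to 5.67 RPKM, whereas the matrix protein SPARC was at 0.0961 to 0.292 RPKM. CD44 thus was highest in the second miR-217 mimic library, and FN1 was nearly the same in all 4. Of 34 other mesenchymal genes, 32 were listed and 24 reached 1 RPKM, led by S100A6 at 549, TPM2 at 294 and MSN at 127 RPKM.

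**Figure D2:**
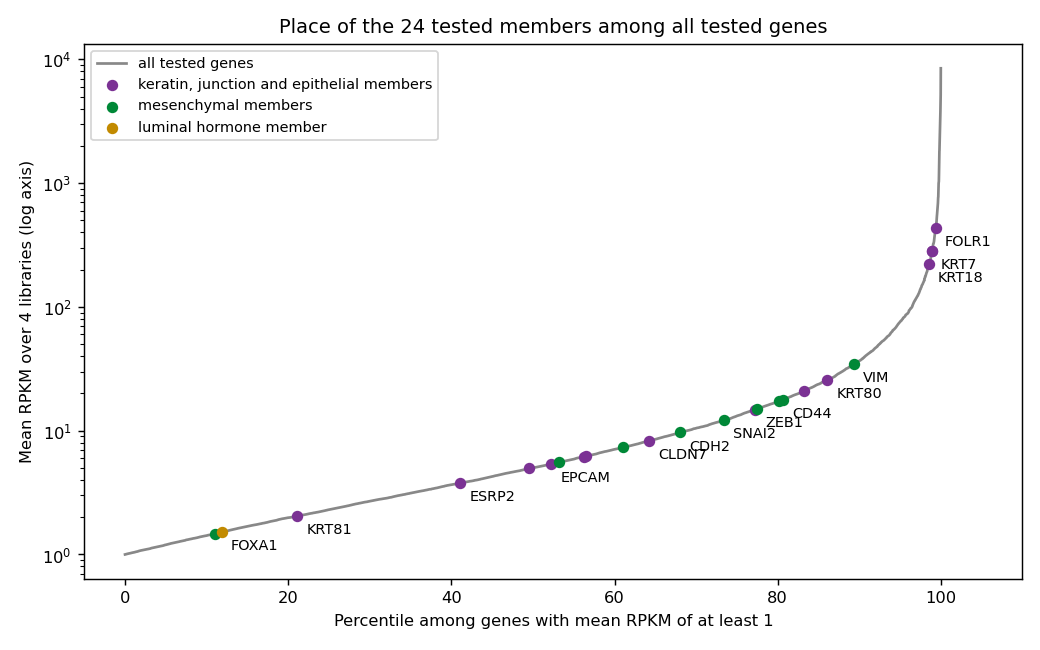
Mean RPKM over the 4 libraries (log axis) against the percentile among the 13871 genes that averaged 1 RPKM or more, with the 24 members as coloured points on the curve of all genes. FOLR1, KRT7, KRT8 (drawn under KRT7) and KRT18 lie above the 98th percentile, VIM lies at 89.3, and FOXA1 lies at 11.9.

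Hormone-responsive luminal genes were low. FOXA1, a pioneer factor for the estrogen receptor, was at 1.30 to 1.70 RPKM (169 to 393 reads), percentile 11.9. ESR1, the estrogen receptor, had 19 to 55 reads per library (0.0294 to 0.0756 RPKM) and GATA3, a luminal transcription factor, had 8 to 18 reads. Of 22 other breast genes, 17 were listed and 8 reached 1 RPKM, with XBP1 at 94.4, EGFR at 21.7 and ALDH1A3 at 6.30 RPKM highest. A low ESR1 is what is generally described for the line on the label, whereas the measured CDKN2A is not. For vimentin, the other trait named above, VIM was at 27.9 to 36.9 RPKM, percentile 89.3, and below KRT7 in each library. Whether that level is what is meant by strongly positive was not tested. The cancer-testis gene XAGE1B had 62 and 36 reads in the libraries numbered 1 and 2 reads in each of those numbered 2. Since XAGE1 genes are near-identical copies, the reads of XAGE1B are uncertain. Of 19 other cancer-testis genes, 12 were listed and 4 reached 1 RPKM, with MAGEA6 at 10.8, MAGEA3 at 6.29 and PRAME at 4.90 RPKM highest.

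The 24 members at 1 RPKM or more had a median percentile of 70.8. The members were named with earlier results of these data known and kept here by level, so it is only a description. Markers of other cell types were mostly at or near 0. Of 5 leukocyte markers only CD68 reached 1 RPKM (12.2 RPKM, with 85.8% of its exon bases shared with other listed genes), and the summed level of the list was 11.7 to 15.6 RPKM. Of 4 endothelial markers CDH5 alone reached it, and of 5 fibroblast markers LUM and DCN did. Among 3 adipocyte and 4 melanocyte markers none reached it.

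Of the 24 members, 18 separated the libraries by replicate number, as many of all genes did. The libraries numbered 2 lay above both numbered 1 for 9 of the 24 members, where 26.9% of all genes did so. They lay below both for another 9, where 35.5% of all genes did so, and this share of members is near the background. The higher ones were CLDN1, CD44, CDH2, TJP1, AXL, ZEB2, ZEB1, KRT80 and KRT7, and the lower ones were KRT8, KRT18, CD24, KRT17, LGALS1, FOLR1, FOXA1, ESRP2 and SNAI2. By mean RPKM, CLDN1 was the 1 member at least 2-fold higher in number 2 (1.25% of all genes were) and KRT8 the 1 member at least 2-fold lower (1.51% of all genes were). CLDN1, at 3.05 and 8.57 RPKM with mimic NC and at 2.55 and 10.5 RPKM with miR-217 mimic, was higher in number 2 by 2.81-fold within mimic NC and by 4.13-fold within miR-217 mimic. KRT8 was lower by 2.56-fold within mimic NC and by 2.55-fold within miR-217 mimic, the 87th lowest ratio among the 13871 genes. KRT18 was lower by 1.96-fold and 1.99-fold, and CD24 by 1.69-fold and 1.71-fold. The ratio of KRT8 to KRT18 was 1.39 in both libraries numbered 1 and 1.06 and 1.08 in those numbered 2. KRT7, by contrast, differed between the numbers by 1.02-fold. With 2 libraries a number no test was made of these differences.

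Fibroblast markers and CDH5 also separated the replicate numbers, with number 2 below number 1, as it was for 35.5% of all genes. By mean RPKM, LUM, DCN and CDH5 were at least 2-fold lower in number 2, where 1.51% of all genes were. LUM, a fibroblast proteoglycan, was at 10.4 and 9.13 RPKM in number 1 and at 4.43 and 4.85 RPKM in number 2, and the summed level of the 5 fibroblast markers was 12.5 to 14.1 RPKM in number 1 and 5.64 to 6.07 RPKM in number 2, with PDGFRA, the lowest of them, at no more than 0.0106 RPKM. CDH5, an endothelial cadherin, was at 3.49 and 3.06 RPKM in number 1 and at 1.29 and 1.02 RPKM in number 2, while PECAM1, VWF and KDR overlapped between the numbers and were at no more than 0.138 RPKM. The leukocyte marker CD68 overlapped between the numbers, and the summed levels of the adipocyte and melanocyte lists were at no more than 0.113 and 0.724 RPKM. The part of these transcripts in the difference between the numbers was not tested.

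**Figure D3:**
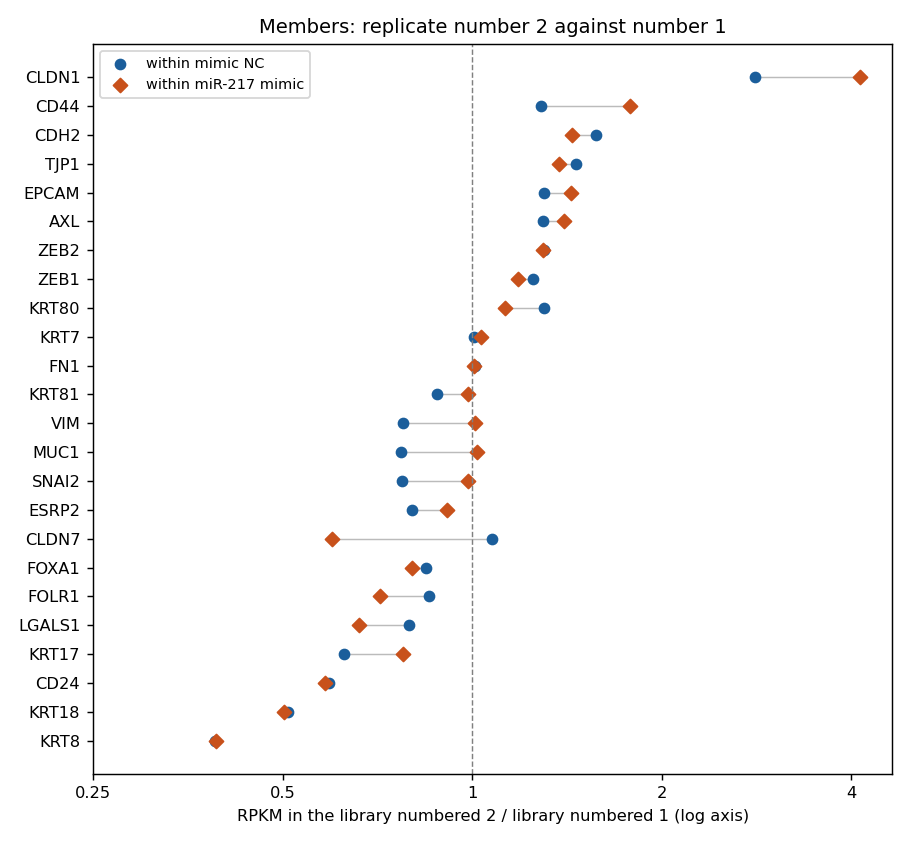
Ratio of RPKM in the library numbered 2 to the library numbered 1 (log axis) for the 24 members, within mimic NC (circles) and within miR-217 mimic (diamonds). The 2 ratios lie close to each other for KRT8 (0.391 and 0.392) and KRT18 (0.511 and 0.502), and they lie on opposite sides of 1 for CLDN7 (1.07 and 0.599).

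No difference between miR-217 mimic and mimic NC in the members passed the test. The fit was made with limma on log2(RPKM + 1) for all 13871 genes, a scale that understates the change of low genes. It had no term for the replicate number, so its error also holds the distance between the numbers. With such a term (a replicate block), 1046 genes and 3 members had an unadjusted limma p under 0.05, and 0 genes had an adjusted one. The counts that follow are from the fit without it. After Benjamini-Hochberg adjustment 0.0% of all genes had a p under 0.05, 1.19% had an unadjusted p under 0.05 (165 genes, and 82 with limma voom), and of the 24 members 0 had either. By direction, 12 members were lower and 12 higher with the mimic, and the median log2 fold change was -0.0059, compared with -0.017 over all genes. Both miR-217 mimic libraries lay above both mimic NC libraries for EPCAM, KRT81 and VIM, 3 of the 24 members, where 9.72% of all genes did so. They lay below both for CLDN7 and FN1, 2 of the 24, where 13.5% of all genes did so. Both shares are near the background.

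Among the cell adhesion genes, EPCAM had a mean of 4.48 ± 0.822 RPKM with mimic NC and 6.28 ± 1.59 RPKM with miR-217 mimic (SD, n = 2 each), with a log2 fold change of 0.40 (standard error 0.21, limma adjusted p = 1.00). The difference was 0.33 between the libraries numbered 1 and 0.47 between those numbered 2. CLDN7 had a log2 fold change of -0.43 (standard error 0.24, limma adjusted p = 1.00), which came from the second miR-217 mimic library, since the difference was -0.06 within number 1 and -0.80 within number 2. For CDH2 the log2 fold change was 0.26 (standard error 0.27), with 0.31 and 0.21 within the numbers, while the libraries numbered 2 were above those numbered 1 by 0.58 with mimic NC and by 0.48 with miR-217 mimic.

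FOLR1 had 485 ± 53.8 RPKM with mimic NC and 391 ± 92.3 RPKM with miR-217 mimic (SD, n = 2 each), a log2 fold change of -0.33 (standard error 0.22, limma adjusted p = 1.00), with -0.20 and -0.46 within the numbers. VIM had a log2 fold change of 0.21 (standard error 0.16), with 0.02 and 0.39 within the numbers, and the second mimic NC library lay below the other 3. CD44 had 0.33 (standard error 0.30), with 0.11 within number 1 and 0.56 within number 2. Of the 6 keratins tested, KRT17 was at 0.25 (standard error 0.26) and KRT81 at 0.23 (standard error 0.12), KRT7 was at 0.02 (standard error 0.13), and KRT8, KRT18 and KRT80 were at -0.10, -0.11 and -0.11 (standard errors 0.63, 0.47 and 0.17). The wide errors of KRT8 and KRT18 hold the distance between the replicate numbers, and within each number their differences were between -0.10 and -0.12.

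Of the members with a match to the miR-217 seed that were tested, ZEB1 had a log2 fold change of -0.06 (standard error 0.16), FN1 of -0.04 (standard error 0.11) and CD44 of 0.33. The differences of these 3 genes, whose matching sequences are printed above, had both signs and none passed the test. For FN1 the groups did not overlap, with 5.62 and 5.67 RPKM in the mimic NC libraries and 5.46 and 5.50 RPKM in the miR-217 mimic libraries. In the wider lists, 0 of 17 other junction genes, 0 of 2 other keratins, 0 of 14 other epithelial genes, 0 of 24 other mesenchymal genes, 0 of 8 other breast genes and 0 of 4 other cancer-testis genes had an unadjusted limma p under 0.05, and none did in the lists of other cell types.

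**Figure D4:**
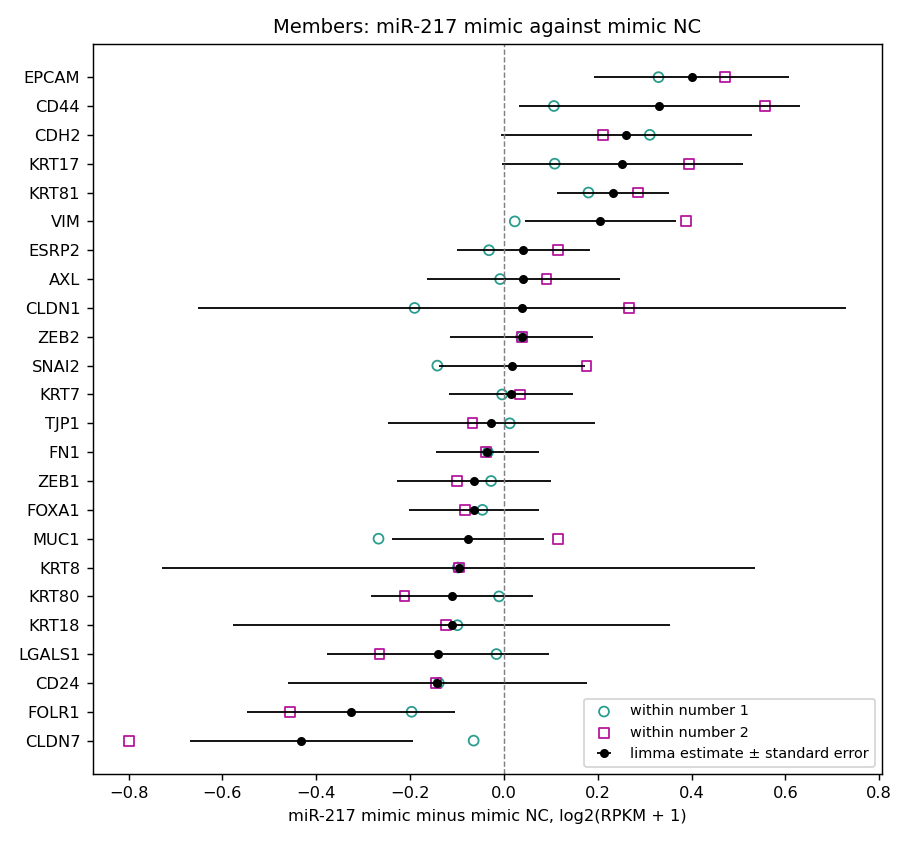
Difference of miR-217 mimic from mimic NC on the log2(RPKM + 1) scale for the 24 members, as the limma estimate with its standard error (black) and within replicate number 1 (circles) and number 2 (squares). EPCAM lies highest at 0.40 and CLDN7 lowest at -0.43, and the values of KRT8 and KRT18 within the numbers lie close together inside wide bars.

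The promoters of junction members were read for the E-box letters CACCTG or CAGGTG, which are reverse complements of each other, so that both strands are covered. These are shown because ZEB1 and SNAI2, factors known to bind such letters, were both expressed. RefSeq promoters (GRCh38.p14, 250 bases before to 50 after a start) were matched for 53 starts of members. Of these starts 13 (24.5%) held the letters, compared with 20.6% of all 35116 promoters and 18.1% of the promoters of expressed genes. These are starts and not genes: MUC1, OCLN and ZEB1 enter with more than 1, and the overlapping windows of MUC1 hold the same letters. A promoter of CLDN7 (chr17:7262429-7262728, minus strand) held 5 of them, one of OCLN (chr5:69492540-69492839) held 2 and that of CLDN3 (chr7:73770221-73770520, minus strand) held 1, with the letters in capitals.
CLDN7: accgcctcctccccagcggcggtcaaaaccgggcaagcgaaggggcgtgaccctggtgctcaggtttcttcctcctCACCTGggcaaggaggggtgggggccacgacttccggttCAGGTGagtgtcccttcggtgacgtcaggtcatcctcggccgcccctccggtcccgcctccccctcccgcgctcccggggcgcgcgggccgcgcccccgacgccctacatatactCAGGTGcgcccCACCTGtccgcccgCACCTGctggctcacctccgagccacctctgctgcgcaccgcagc
OCLN: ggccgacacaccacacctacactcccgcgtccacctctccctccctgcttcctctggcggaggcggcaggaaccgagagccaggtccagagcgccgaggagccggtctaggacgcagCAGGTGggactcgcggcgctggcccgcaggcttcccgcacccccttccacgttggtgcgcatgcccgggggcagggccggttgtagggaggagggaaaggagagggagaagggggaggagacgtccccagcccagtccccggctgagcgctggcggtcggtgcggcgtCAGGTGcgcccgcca
CLDN3: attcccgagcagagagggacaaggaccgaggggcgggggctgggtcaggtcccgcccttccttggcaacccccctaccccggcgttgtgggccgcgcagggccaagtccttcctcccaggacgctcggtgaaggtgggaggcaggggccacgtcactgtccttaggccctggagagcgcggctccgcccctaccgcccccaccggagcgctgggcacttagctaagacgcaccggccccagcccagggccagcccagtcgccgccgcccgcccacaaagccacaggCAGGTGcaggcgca
Another promoter of CLDN7 (chr17:7263164-7263463, minus strand) held none. By mean RPKM, CLDN7 was at 8.26, OCLN at 0.235 and CLDN3 at 0.0068. Of the other junction members, 1 promoter of TJP1 (4.96 RPKM) held the letters once, and those of CLDN1 (6.17 RPKM), CLDN4 (0.746 RPKM) and CDH2 (9.68 RPKM) held none. The promoter set held no entry for CDH1, CDH3 or EPCAM, nor for KRT7, KRT18 and FOLR1, so the share above leaves these genes out. A match says only that the letters are in the window.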

How the data were processed

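Per the labels, RNA was extracted with TRIzol and sequenced from stranded mRNA libraries. The authors deposited 1 table of RPKM values for 32955 genes. The submitters' processing notes name Trimmomatic 0.36, featureCounts (Subread 1.5.1), edgeR 3.12.1 and hg38, and the aligner, the annotation and the use of strand in counting are not given in the sources used here. Values times gene length were whole multiples of 1 read within 0.01 reads for 100% of nonzero values, and they summed to 1000000 in each library, so reads were recovered (57933183 and 47374957 for mimic NC 1 and 2, and 53356283 and 32635814 for miR-217 mimic 1 and 2). A depth difference of this size makes low values least precise in the second miR-217 mimic library.

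The 13871 genes averaging 1 RPKM or more were fitted on log2(RPKM + 1) with limma 3.58.1, without a replicate term. The fit used lmFit and eBayes with trend, two-sided, with Benjamini-Hochberg adjustment, in R 4.3.3. It had been tested before on simulated reads that held no difference between the replicate numbers. That test therefore cannot say how the fit performs where the numbers differ, as they did in these libraries. Plots were made with matplotlib 3.10.9 in Python 3.11.15. The members and lists were chosen with earlier results of these data known. Values in every library are given for members at a mean of 10 RPKM or more and for FOLR1, KRT7, VIM and CD44. They are also given for members with an unadjusted p under 0.05 with or without a replicate term. CDH1, CLDN1 and CLDN7 were added after their values were seen. The values of FN1 and the reads of XAGE1B in every library are given outside this rule as well. Wider lists are given by counts and their 3 highest genes. Other settings tried were a pseudocount of 0.1, a filter at 5 RPKM or none, median centring and a replicate block. Limma voom on recovered reads, with or without the block, and leaving out each library were tried too. With median centring, 176 genes and 0 members had an unadjusted limma p under 0.05. The members' median log2 fold change was then 0.020, of the other sign than in the main fit. A list of genes of other epithelia is not reported here.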

Additional observations from a re-analysis of the deposited data

How the results depend on the processing

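The count of genes at an unadjusted p under 0.05 (165) was 877 without a filter, 48 at a mean RPKM of at least 5, 82 with limma voom and 93 to 866 when 1 library was left out, the most without the first miR-217 mimic library. The count at an adjusted p under 0.05 was 0 in all of these. Of the members, 1 had an unadjusted p under 0.05 without a filter (SNAI1, under 1 RPKM), and 0 to 4 did when 1 library was left out, the 4 being CLDN7, CD44, EPCAM and FOLR1 without the first miR-217 mimic library. The labels do not say that the replicate numbers pair libraries, and with 2 pairs the pairing could not be settled, although same-numbered libraries deviated together (correlation 0.68). With the replicate block, 1046 of the 13871 genes and 3 of the 24 members had an unadjusted p under 0.05 and 0 genes an adjusted one. The members were EPCAM, CDH2 and FOLR1 (limma, adjusted p = 0.633 for each). Of the wider lists, 4 of 14 other epithelial genes had an unadjusted limma p under 0.05 with the block (LCN2, EHF, KLF5 and ELF3). So did 2 of 17 other junction genes (TJP3 and CRB3). All of these were lower with miR-217 mimic, and their lowest adjusted limma p was 0.633. The block gave 0 of 24 other mesenchymal genes, 0 of 8 other breast genes, 0 of 4 other cancer-testis genes and 0 of 2 other keratins. It also gave 0 in the lists of leukocyte, endothelial and fibroblast markers. With the block and voom, 1261 genes and 6 members had an unadjusted p under 0.05 and 1 gene an adjusted one.

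Without 1 library the replicate numbers are no longer balanced between the treatments. This moved the median log2 fold change of the members between -0.0052 and 0.023, and it turned the sign for CD44 (-0.063 to 0.73), CDH2 (-0.030 to 0.55), KRT7 (-0.0083 to 0.039), KRT8 (-0.77 to 0.58), KRT18 (-0.61 to 0.38) and ZEB1 (-0.21 to 0.086). The sign held but the size moved for CLDN7 (-0.75 to -0.11), EPCAM (0.18 to 0.63), FOLR1 (-0.57 to -0.084), VIM (0.030 to 0.38), KRT81 (0.17 to 0.29) and FN1 (-0.042 to -0.030). The members' median percentile of 70.8 was 87.7 among all genes listed and 41.7 among genes at 5 RPKM or more, as more or fewer low genes enter the ranking, and 70.1 to 71.6 when 1 library was left out.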
